A study of Homo sapiens with 18 samples.

Results

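The clustered protocadherin genes lie in 3 neighbouring arrays, PCDHA, PCDHB and PCDHG, on human chromosome 5. Members were all ChIP-seq peak summits between 140150 and 140900 kb of the hg19 build, a window of 750 kb. Within it PCDHA spans about 140165 to 140392 kb, PCDHB about 140430 to 140628 kb and PCDHG about 140710 to 140893 kb. The window held 351 of the 946841 summits in the 13 libraries. The rule used position alone and none of the values below, but it was set with earlier results of these data known.

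Clustered protocadherins are cell adhesion proteins best known from neurons. A neuron switches on a small, largely random set of them, and this gives the cell a surface identity by which it tells its own branches from those of its neighbours. In PCDHA and PCDHG each variable exon has its own promoter, and its transcript is spliced to constant exons shared by the whole cluster. PCDHB genes are single-exon genes without such shared exons. Promoter choice in these clusters is known to involve DNA methylation, the insulator protein CTCF, cohesin and distant enhancers. In tumours, long-range methylation of the clusters has been described.

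H3K4me3 marks active or poised promoters, H3K27ac marks active promoters and enhancers, and H3K4me1 is spread over enhancers and promoter flanks. The 3 marks were profiled in 4 conditions of human lung adenocarcinoma cells, with 2 H3K27ac libraries for the first condition and 1 library for each other mark and condition. The conditions were the H2087-LCC line (LCC below), the same line given 100 nM TGF-β1 for 4 days (TGF-β1-treated LCC), the H2087-LCC-SO1 line (SO1) and the unrelated H2030 line. LCC and SO1 were grown in RPMI with serum, hydrocortisone, insulin, transferrin, albumin and epidermal growth factor, and H2030 in RPMI with serum and no such additions, so the line and the medium cannot be told apart. What SO1 denotes is not given in the labels. The cell type could not be checked against marker genes, because no hg19 annotation was at hand and no summit could be tied to a gene. For the same reason elements are named by hg19 position and by array. These are populations of cells, so fewer cells with a mark and less mark per cell cannot be told apart.

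RefSeq's GRCh38.p14 annotation lists 15 protein-coding genes in PCDHA, 16 in PCDHB and 22 in PCDHG, 53 in all, beside 6 pseudogenes. It places SLC25A2, a mitochondrial carrier gene, and TAF7, a gene for a subunit of the general transcription factor TFIID, between PCDHB and PCDHG. DIAPH1, a formin gene, follows PCDHG. The promoters of these arrays are known to share a short conserved element built around the core CGCT. It is shown here as background, and which H3K4me3 summits below lie at such promoters was not determined. RefSeq promoter sequences were at hand for 47 of the 53 genes, as 52 sequences. In each array the 8-base word carried by the most promoters was found in the 250 bases before the gene start. Below are the first 3 genes of each array, in order along the chromosome, that hold the word with 25 bases on either side. Capitals mark the word. All are on the + strand of GRCh38.p14, whose coordinates cannot be set beside the hg19 positions used elsewhere.
PCDHA1: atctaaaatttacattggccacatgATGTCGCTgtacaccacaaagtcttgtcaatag
PCDHA2: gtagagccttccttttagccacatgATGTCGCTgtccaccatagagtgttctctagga
PCDHA4: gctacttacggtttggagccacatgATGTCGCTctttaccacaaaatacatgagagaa
PCDHB2: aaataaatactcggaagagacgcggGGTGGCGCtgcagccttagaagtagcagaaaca
PCDHB3: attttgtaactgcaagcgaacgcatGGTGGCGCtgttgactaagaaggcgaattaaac
PCDHB4: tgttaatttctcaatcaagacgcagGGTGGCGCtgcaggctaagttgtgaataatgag
PCDHGA1: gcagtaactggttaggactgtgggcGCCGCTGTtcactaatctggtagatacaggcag
PCDHGB1: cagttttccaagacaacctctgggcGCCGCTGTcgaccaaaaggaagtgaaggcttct
PCDHGA7: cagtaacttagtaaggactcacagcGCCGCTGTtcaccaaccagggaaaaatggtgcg

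The windows shown are chr5:140786073-140786130 for PCDHA1, chr5:140794768-140794825 for PCDHA2, chr5:140806966-140807023 for PCDHA4, chr5:141094530-141094587 for PCDHB2, chr5:141100379-141100436 for PCDHB3, chr5:141121709-141121766 for PCDHB4, chr5:141330392-141330449 for PCDHGA1, chr5:141350014-141350071 for PCDHGB1 and chr5:141382638-141382695 for PCDHGA7. Each lies upstream of its own gene's start, and in such arrays it can fall in an intron of a preceding gene. In PCDHA the word was ATGTCGCT, held by 9 of 13 promoters (69.2%) against 0.182% of all 35116 promoters in the table. In PCDHB it was GGTGGCGC, held by 12 of 14 promoters (85.7%) against 1.84% of all. In PCDHG it was GCCGCTGT, held by 13 of 25 promoters (52.0%) against 1.23% of all. Both strands were searched, and every match in these arrays was on the gene's strand. No promoter of one array held the word of another. The word and its flanks cover the core CGCT in each of the 9 sequences. The words were picked from these same promoters, so their shares are a description, and a match is not evidence of a factor bound there.

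H3K4me3 summits were dense in the window beside tiles of the same length. The tiles were not matched for genes, and the arrays hold 53 protein-coding genes. Density beyond the number of genes was not tested. LCC had 27 of its 26049 H3K4me3 summits there, and 97 of 3795 tiles of the same length over the genome (2.56%) held as many. TGF-β1-treated LCC had 29 of 28850 (2.48% of tiles with as many), SO1 29 of 28627 (2.16%) and H2030 34 of 25624 (0.606%). The median tile held 5 to 6. The other marks were not dense. H3K27ac summits numbered 14 and 16 in the LCC replicates, 22 in TGF-β1-treated LCC, 17 in SO1 and 21 in H2030, and between 24.8% and 43.7% of tiles held as many. H3K4me1 summits numbered 36 in LCC, 29 in TGF-β1-treated LCC, 37 in SO1 and 40 in H2030, with 36.9% to 56.8% of tiles holding as many.

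Peak strength was taken from the score that the authors deposited with each summit, a −log10 of the caller's p or q. It grows with sequencing depth, which is unknown here, so it ranks summits only within a list. Scores of an element in several lists are given below as deposited, and their size is not comparable between lists. H3K4me3 summits of the window had a median score of 132 in LCC, where the whole list had 189, and 10 of 27 (37.0%) reached the list's median. The medians were 182 against 147 in TGF-β1-treated LCC, 201 against 183 in SO1 and 188 against 247 in H2030. At or above the list's median lay 17 of 29 (58.6%), 15 of 29 (51.7%) and 13 of 34 (38.2%) of these summits. The protocadherin summits were thus many, with median scores on either side of those of their lists.

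Joining H3K4me3 summits that lay within 1000 bp of each other in any condition gave 46 elements. Neighbouring elements lay a median of 8.98 kb apart, with gaps from 1.82 to 86.0 kb, and 25 of 45 gaps were under 10 kb. Summits of shared elements lay close together. The 18 elements with a summit in all 4 conditions spanned a median of 76.5 bp, from 23 to 244 bp. These 18 were 39.1% of the elements (Wilson 95% interval 26.4 to 53.5), and over all 39776 H3K4me3 elements the share was 41.3%. The 3 H2087 conditions alone shared 7 elements (15.2%), against 14.3% over all. H2030 alone had 14 (30.4%, interval 19.1 to 44.8), against 16% over all. This interval lies above the overall share, though it covers counting error only and each H3K4me3 list is 1 library. The scores of these 14 elements ran from 5.45 to 520, on both sides of the H2030 list's median of 247, so weak elements are among them. The other 7 elements were 2 of LCC and TGF-β1-treated LCC, 2 of SO1 alone, 1 of TGF-β1-treated LCC and SO1, 1 of TGF-β1-treated LCC and H2030, and 1 of SO1 and H2030.

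**Figure D1:**
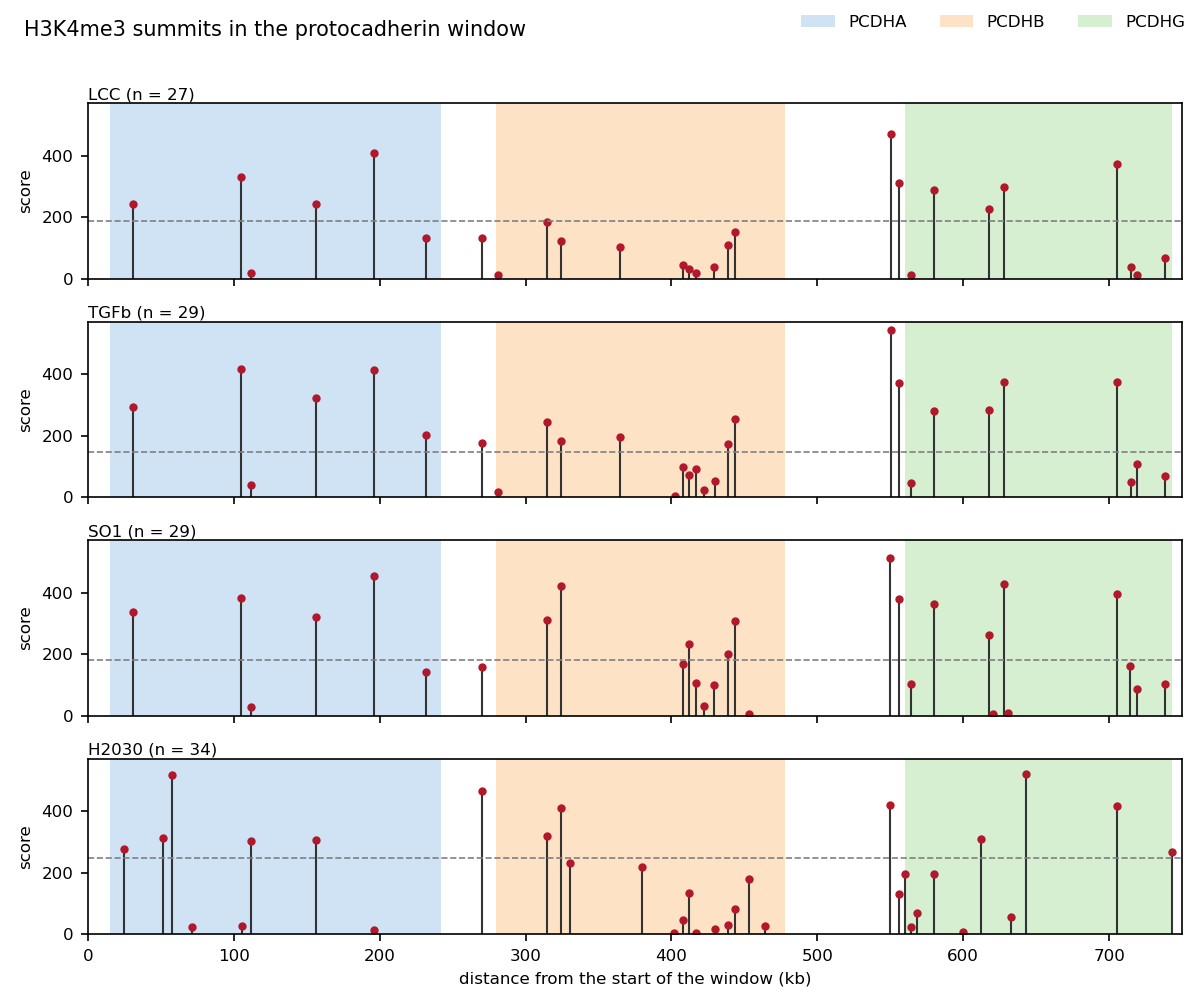
H3K4me3 summits of the window in each condition. The x axis is the distance from the window's start in kb, each stem is a summit with its score (authors' −log10 value), shading shows the 3 arrays, and the dashed line is the median score of the whole list. The LCC, TGF-β1-treated LCC (TGFb) and SO1 panels share nearly all stems, and H2030 has 14 elements that the others lack.

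The arrays differed in which elements the lines shared. PCDHB had 16 elements, 8 of them in all 4 conditions, 3 in H2030 alone and none in the 3 H2087 conditions alone. PCDHA had 10, with 4 in all conditions, 4 in H2030 alone and 2 in the H2087 conditions alone. PCDHG had 17, with 3 in all conditions, 7 in H2030 alone and 5 in the H2087 conditions alone. The single element between PCDHA and PCDHB and both elements between PCDHB and PCDHG were in all 4 conditions. No test of these counts between arrays was made.

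In PCDHA the strongest element of H2030 was one that no other condition had. The element at 140207825 scored 520, above 82.6% of that list, and no H3K4me3 summit of LCC lay within 26894 bp. Its H3K27ac summit at 140207893 scored 152 and its H3K4me1 summit 13.7, both in H2030 only. The element at 140201553 was likewise in H2030 only, with 314 for H3K4me3 and 12.7 for H3K27ac, and its nearest LCC H3K4me3 summit was 20622 bp away. H2030 thus had a pair of promoter-type elements where the H2087 conditions had none within 10 kb. Only that at 140207825 was strong. That at 140201553 lay above 53.1% of the H3K4me3 list and 46.1% of the H3K27ac list of H2030.

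The element at 140346091 to 140346214 had the opposite order. It scored 408 in LCC, 415 in TGF-β1-treated LCC and 455 in SO1, above 64.2% to 66.9% of each list, and 11.8 in H2030, above 17.8%. H3K27ac there scored 14.8 and 39.3 in the LCC replicates, 45.7 in TGF-β1-treated LCC and 64.5 in SO1, and the nearest H3K27ac summit of H2030 was 38138 bp away. So this element was marked strongly in the H2087 line and only weakly, without H3K27ac, in H2030.

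The element at 140255147 to 140255253 followed the same order, with 331 in LCC, 417 in TGF-β1-treated LCC, 382 in SO1 and 25.3 in H2030. These lay above 59.4%, 64.3%, 59.6% and 27.7% of the lists. Its neighbour at 140261971 to 140262062, chosen for mention after its values were seen, ran the other way. It had 19.0, 39.5 and 28.4 in the H2087 conditions and 302 in H2030, above 25.0%, 36.9%, 30.7% and 52.5% of the lists. An H3K27ac summit of H2030 there scored 46.3. The pair lies under 10 kb apart, and the stronger of the 2 differed between the lines. The element at 140306439 to 140306525 was level across conditions, with 242, 322, 321 and 307 in LCC, TGF-β1-treated LCC, SO1 and H2030. At 140180931 to 140180950 H3K4me3 scored 242 in LCC, 293 in TGF-β1-treated LCC and 338 in SO1, above 53.2%, 57.3% and 57.4% of the lists. H3K27ac there scored 10.3 in LCC replicate 2 and 5.28 in TGF-β1-treated LCC, with no summit in the other libraries. The nearest H3K4me3 summit of H2030 was 6137 bp away.

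The last PCDHA element, at 140381498 to 140381707, stood apart by its acetylation. Its H3K4me3 scores were middling, 132 in LCC, 201 in TGF-β1-treated LCC and 143 in SO1. The nearest H3K4me3 summit of H2030 lay 35407 bp from the element. H3K27ac scored 64.4 and 144 in the LCC replicates, 222 in TGF-β1-treated LCC and 173 in SO1, above 84.6% to 92.5% of each list. H3K4me1 scored 78.1 in LCC and 73.1 in TGF-β1-treated LCC, above 97.9% and 98.1% of those lists, and 1.50 in H2030. The H3K4me1 element next to it, at 140383843 to 140384637, scored 90.1 in LCC, 68.5 in TGF-β1-treated LCC, 81.7 in SO1 and 12.9 in H2030. This end of PCDHA therefore carried strong H3K27ac in the H2087 line and the highest H3K4me1 scores that LCC and TGF-β1-treated LCC had in the window. In H2030 an H3K27ac summit there scored 3.18.

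Between PCDHA and PCDHB the element at 140420216 to 140420308 had H3K4me3 scores of 133 in LCC, 175 in TGF-β1-treated LCC, 159 in SO1 and 465 in H2030. These lay above 46.2%, 51.7%, 48.7% and 67.8% of the lists. H3K27ac had no summit there in LCC replicate 1 and scored 5.73 in replicate 2, 18.0 in TGF-β1-treated LCC, 4.28 in SO1 and 207 in H2030. The H2030 value was above 88.3% of its list and the others were below the medians of theirs.

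In LCC the PCDHB elements were weak. Their highest H3K4me3 score was 184, below that list's median of 189. It belonged to the element at 140464422 to 140464463, which scored 245 in TGF-β1-treated LCC, 311 in SO1 and 319 in H2030. Within their lists these positions were close. In the order LCC, TGF-β1-treated LCC, SO1 and H2030, the element stood above 49.7%, 55.2%, 56.1% and 53.3% of the list. H3K27ac was without a summit there in both LCC libraries, whose nearest lay 44219 bp off, and scored 28.3 in TGF-β1-treated LCC, 58.6 in SO1 and 47.6 in H2030. This was the only PCDHB element with an H3K27ac summit in TGF-β1-treated LCC.

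The element at 140474390 to 140474486 scored 123 in LCC, 182 in TGF-β1-treated LCC, 422 in SO1 and 412 in H2030. H3K27ac was present there in SO1 (26.8) and H2030 (71.4) and had no summit in LCC or TGF-β1-treated LCC. The next element, at 140480265, was in H2030 only, with 232 for H3K4me3 and 84.9 for H3K27ac. At 140593628 to 140593670 the H3K4me3 scores were 151, 255, 309 and 82.9 in LCC, TGF-β1-treated LCC, SO1 and H2030, and the only H3K27ac summit was in SO1, with 15.6.

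The element at 140562108 to 140562175 gave 32.8, 73.2, 235 and 134 in the same order, and again H3K27ac was found in SO1 alone, with 15.8. At 140514982 to 140515006 LCC scored 103 and TGF-β1-treated LCC 196, while the nearest H3K4me3 summit lay 40534 bp away in SO1 and 14857 bp away in H2030. The rest of PCDHB held H3K4me3 elements with scores of 2.87 to 219 in the conditions that had them.

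The 2 elements between PCDHB and PCDHG carried both H3K4me3 and H3K27ac in every library. The one at 140700116 to 140700192 scored 473 in LCC, 544 in TGF-β1-treated LCC, 515 in SO1 and 420 in H2030. Its H3K27ac scores were 58.6 and 145 in the LCC replicates, 255 in TGF-β1-treated LCC, 207 in SO1 and 227 in H2030, above 85.9% to 92.6% of each list. The one at 140705981 to 140706056 scored 311, 371, 380 and 131 for H3K4me3, with H3K27ac of 11.7 and 14.7, then 54.8, 117 and 27.9. This gap between the arrays holds SLC25A2 and TAF7 in the RefSeq annotation of the other build, and which gene an element serves was not determined.

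In PCDHG the strongest H3K4me3 element of H2030 was again its own, with 520 at 140792866, above 82.8% of that list. H3K27ac there scored 46.3 and H3K4me1 18.7, and the nearest H3K4me3 summits were 15181 bp away in LCC and TGF-β1-treated LCC and 12198 bp away in SO1. In the H2087 line the element at 140777685 to 140777688 scored 298 in LCC, 376 in TGF-β1-treated LCC and 430 in SO1. H3K27ac there scored 6.31 and 11.1 in the LCC replicates, 54.6 in TGF-β1-treated LCC and 81.6 in SO1. H2030 had no H3K4me3 summit at this element, and its nearest H3K27ac summit was 15115 bp away. The 2 lines thus had their strong marks at different elements of this stretch.

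The element at 140855685 to 140855707 was present in all, with H3K4me3 scores of 374, 375, 396 and 417 in LCC, TGF-β1-treated LCC, SO1 and H2030. Its H3K27ac scores were 12.4 and 21.8 in the LCC replicates, 101 in TGF-β1-treated LCC, 40.1 in SO1 and 10.7 in H2030. The element at 140729854 to 140729955 was also in all 4, with 290, 281, 363 and 195. That at 140762437 was in H2030 only, with 308.

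Toward the end of PCDHG the H2087 conditions had a pair of elements chosen for mention after their values were seen. H3K4me3 at both lay below the list's median and H3K27ac above it. At the first element, H3K27ac of LCC replicate 1 was barely above that median. At 140868850 to 140868964 H3K4me3 scored 12.6 in LCC, 108 in TGF-β1-treated LCC and 85.9 in SO1. H3K27ac scored 12.6 and 36.4 in the LCC replicates, 205 in TGF-β1-treated LCC and 125 in SO1, above 50.2%, 69.8%, 88.1% and 77.9% of the lists. H3K4me1 scored 39.7, 57.4 and 84.1 in LCC, TGF-β1-treated LCC and SO1, and H2030 had no summit of any of the 3 marks within 1 kb.

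At 140888519 to 140888614 H3K4me3 scored 66.1, 70.0 and 102 in LCC, TGF-β1-treated LCC and SO1. H3K27ac scored 64.4 and 49.4 in the LCC replicates, 270 in TGF-β1-treated LCC, 148 in SO1 and 18.6 in H2030, which lacked the H3K4me3 summit. The TGF-β1 value was the highest H3K27ac score of that library in the window, above 92.9% of its list. H3K4me1 scored 70.2, 72.2 and 71.8 in the H2087 conditions and 16.7 in H2030. H2030 instead had an element at 140892996, with 267 for H3K4me3 and 160 for H3K27ac.

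Over the window, H3K27ac accompanied fewer H3K4me3 summits than over the genome. In LCC 10 of 27 H3K4me3 summits (37.0%, interval 21.5 to 55.8) had a summit of H3K27ac replicate 1 within 1 kb, against 68.6% of all H3K4me3 summits. With replicate 2 it was 14 of 27 (51.9%, 34.0 to 69.3) against 72.7%. The intervals of both replicates lie below the overall share.

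In TGF-β1-treated LCC 17 of 29 (58.6%, 40.7 to 74.5) had H3K27ac, against 73.5% over all, and this interval covers the overall share. In SO1 it was 16 of 29 (55.2%, 37.5 to 71.6) against 73.1%, and in H2030 16 of 34 (47.1%, 31.5 to 63.3) against 69.1%. Among summits at or above the list's median score, 7 of 10 in LCC had H3K27ac by replicate 1 (88% over all) and 9 of 10 by replicate 2 (91.7%). The same held for 13 of 17 in TGF-β1-treated LCC (88.8%), 11 of 15 in SO1 (87.7%) and 11 of 13 in H2030 (90%). The share in the window was the lower one in all 5 libraries, but the counts are small and each interval covers the overall share. The intervals were 39.7 to 89.2 and 59.6 to 98.2 for the LCC replicates and 52.7 to 90.4 in TGF-β1-treated LCC. They were 48.0 to 89.1 in SO1 and 57.8 to 95.7 in H2030. Both LCC shares rest on the same 10 H3K4me3 summits. So among these stronger summits a lower share in the window is not established.

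**Figure D2:**
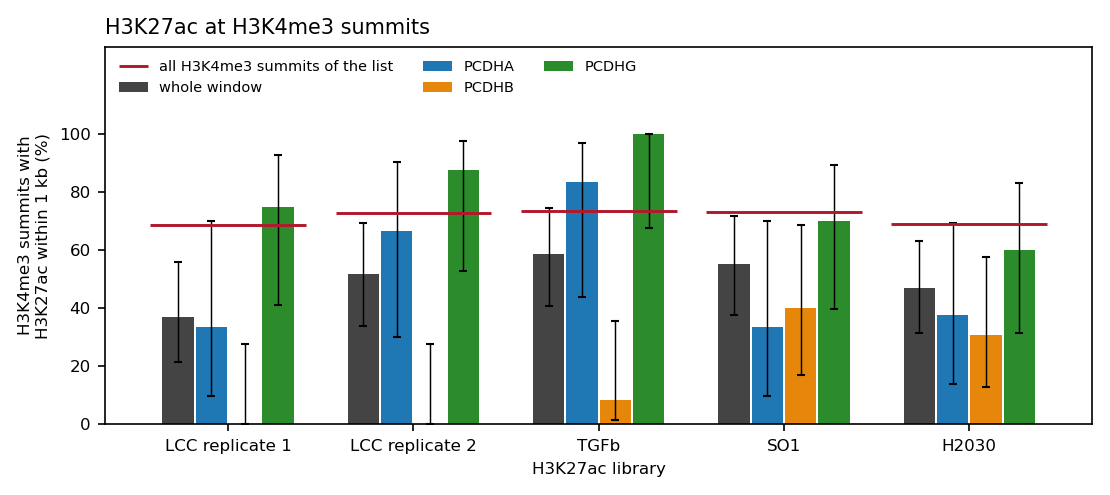
Share of H3K4me3 summits with an H3K27ac summit within 1 kb (y axis, percent) for each H3K27ac library (x axis). Bars are the whole window and the 3 arrays, whiskers are Wilson 95% intervals, and red lines are the share over all summits of the list; PCDHB had 0 of 10 in both LCC replicates and 4 of 10 in SO1, and PCDHG 8 of 8 in TGF-β1-treated LCC (TGFb).

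The arrays differed in this respect. In PCDHB none of the 10 LCC summits had H3K27ac in either replicate (interval up to 27.8%), 1 of 12 had it in TGF-β1-treated LCC, 4 of 10 in SO1 and 4 of 13 in H2030. In PCDHG 6 of 8 and 7 of 8 had it in LCC by replicate 1 and 2, 8 of 8 in TGF-β1-treated LCC, 7 of 10 in SO1 and 6 of 10 in H2030. In PCDHA it was 2 of 6 and 4 of 6 in LCC, 5 of 6 in TGF-β1-treated LCC, 2 of 6 in SO1 and 3 of 8 in H2030. Among summits at or above the list's median score, TGF-β1-treated LCC had H3K27ac at 1 of 5 in PCDHB, 5 of 5 in PCDHA and 4 of 4 in PCDHG, SO1 at 4 of 5, 1 of 4 and 4 of 4, and H2030 at 2 of 2, 3 of 5 and 4 of 4. In LCC no PCDHB summit was that strong, so for PCDHB in LCC the array and summit strength cannot be told apart.

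Where H3K27ac was present at an H3K4me3 summit of the window, it was of lower score than at H3K4me3 summits elsewhere. The medians were 12.5 in LCC replicate 1 against 34.6 over all, and 13.4 against 66.1 in replicate 2. In TGF-β1-treated LCC they were 28.3 against 128, in SO1 49.4 against 100.3 and in H2030 46.3 against 132. The median of the window was the lower in all 5 libraries.

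Seen from the other side, most H3K27ac summits of the window lay at H3K4me3. In LCC replicate 1 this was 11 of 14 (39.1% over all H3K27ac summits of that list) and in replicate 2 14 of 16 (32.3%). In TGF-β1-treated LCC it was 18 of 22 (32.3%), in SO1 17 of 17 (39.1%) and in H2030 17 of 21 (35.3%). H3K27ac with H3K4me1 and without H3K4me3, the usual pattern of a distal enhancer, was found at 1 of 14 in LCC replicate 1 (48.3% over all) and 2 of 16 in replicate 2 (52.8%). It was found at 4 of 22 in TGF-β1-treated LCC (55.8%), 0 of 17 in SO1 (51.4%) and 3 of 21 in H2030 (46%). Its share in the window was below that of the whole list in all 5 libraries.

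H3K4me1 lay within 1 kb of 18 of 27 H3K4me3 summits in LCC (72.7% over all), 12 of 29 in TGF-β1-treated LCC (71.5%), 21 of 29 in SO1 (73.2%) and 20 of 34 in H2030 (67.5%). The interval for TGF-β1-treated LCC, 25.5 to 59.3, lies below its overall share. In PCDHB the counts were 2 of 10, 1 of 12, 4 of 10 and 7 of 13. PCDHB was thus low in both H3K27ac and H3K4me1 in LCC and TGF-β1-treated LCC.

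**Figure D3:**
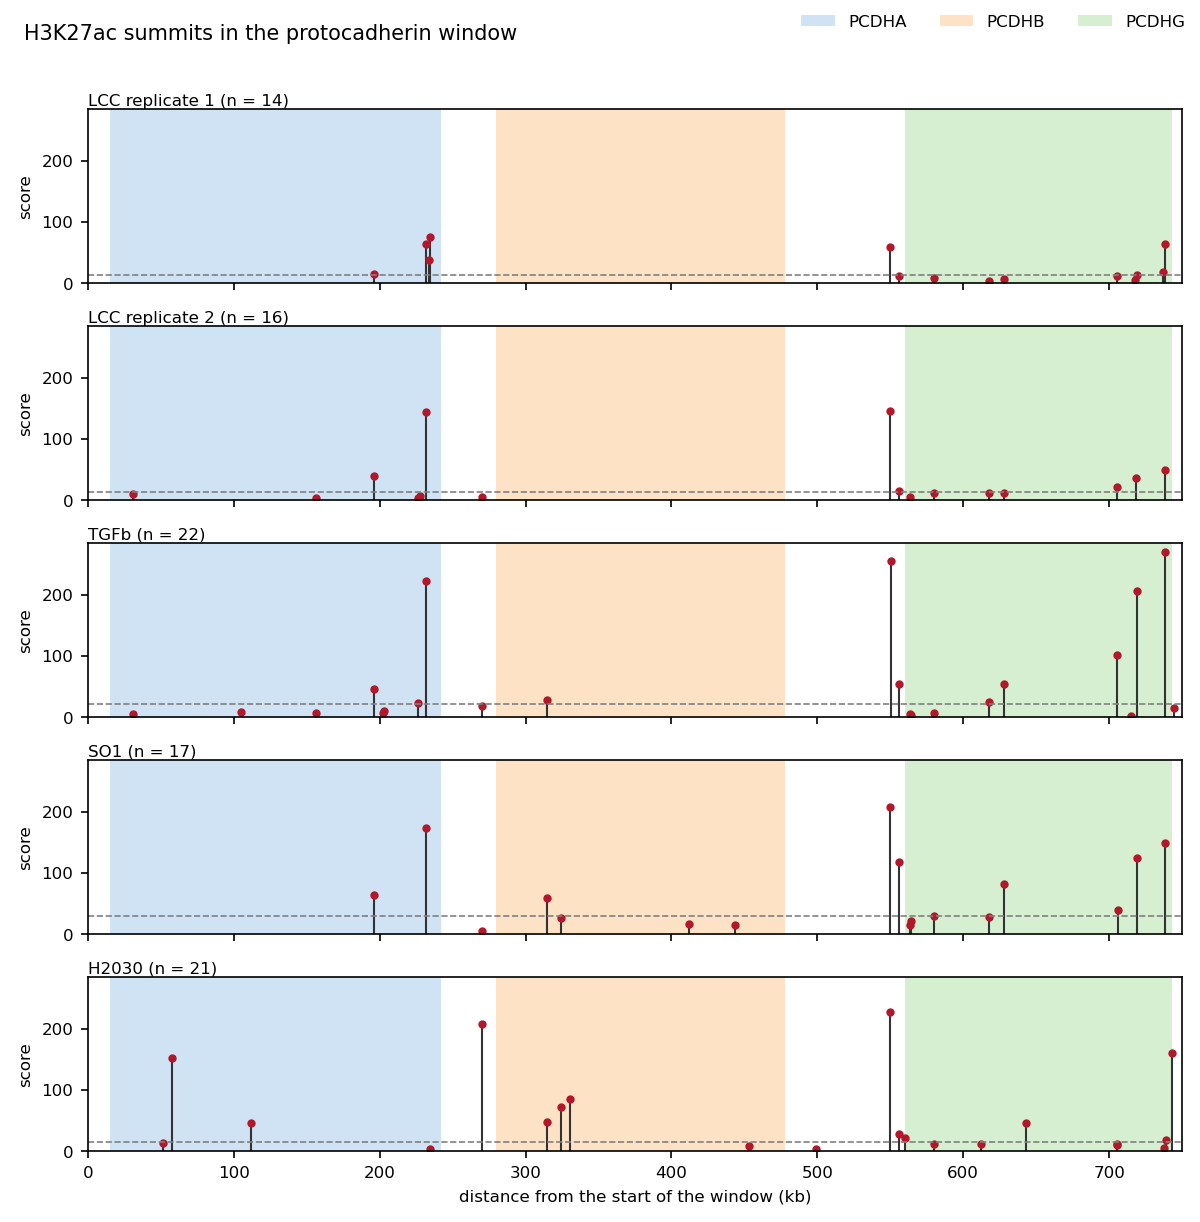
H3K27ac summits of the window in each library, with the LCC replicates apart. The x axis is the distance from the window's start in kb, each stem is a summit with its score (authors' −log10 value), shading shows the arrays and the dashed line is the list's median; PCDHB is empty in both LCC replicates.

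Treatment with TGF-β1 was compared with untreated LCC by asking how many summits had no counterpart within 500 bp in the other list. All 27 H3K4me3 summits of LCC had one in TGF-β1-treated LCC, while over the genome 9.69% lacked one. Of the 29 in TGF-β1-treated LCC 2 lacked one in LCC (6.90%, against 18.4% over all). No H3K4me3 element of LCC was lost with treatment at this distance, and the 2 additional ones scored 4.71 and 22.8. The Wilson intervals of both shares, 0 to 12.46 and 1.91 to 21.96, cover the overall shares. Lower H3K4me3 shares in the window are therefore not established.

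For H3K27ac, 4 of 14 summits of LCC replicate 1 (28.6%, against 35.7% over all) and 2 of 16 of replicate 2 (12.5%, against 37.6%) had no TGF-β1 counterpart, a mean of 20.5% ± 11.4 (SD, n = 2). In the other direction 6 of 22 summits of TGF-β1-treated LCC (27.3%, against 35.5%) had none in either replicate. That value rested on replicate 2: without it 12 of 22 (54.5%) had none. The 2 untreated replicates themselves differed, with 4 of 14 summits of replicate 1 (28.6%, against 30.2% over all) absent from replicate 2 and 6 of 16 of replicate 2 (37.5%, against 43.9%) absent from replicate 1. The shares of the LCC replicates without a TGF-β1 counterpart were no larger than these. The 27.3% of TGF-β1-treated LCC was taken against both replicates together, so it is not a like measure. Set against replicate 1 alone, the share for TGF-β1-treated LCC was 54.5%, beside 37.5% between the replicates. Set against replicate 2 alone, it was 7 of 22 (31.8%), beside 28.6%.

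For H3K4me1 14 of 36 LCC summits (38.9%, against 37.9% over all) had no TGF-β1 counterpart, and 7 of 29 in the other direction (24.1%, against 38.4%).

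The SO1 line was compared with LCC in the same way. Of the LCC H3K4me3 summits 2 of 27 (7.41%, against 15% over all) had no SO1 counterpart, and of those of SO1 4 of 29 (13.8%, against 22.7%) had none in LCC. Both LCC summits were in PCDHB, at 140431083 to 140431120 and 140514982 to 140515006. The 4 SO1 summits were weak, with scores of 5.68, 6.60, 7.05 and 31.8. The Wilson intervals of both shares, 2.06 to 23.4 and 5.5 to 30.6, cover the overall shares.

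For H3K27ac 4 of 14 (28.6%, against 40.9%) and 5 of 16 (31.3%, against 46.7%) summits of the LCC replicates had no SO1 counterpart, a mean of 29.9% ± 1.89 (SD, n = 2), and 5 of 17 SO1 summits (29.4%, against 32.3%) had none in LCC. H3K4me1 gave 13 of 36 (36.1%, against 46.3%) and 14 of 37 (37.8%, against 40.4%). Each of these shares lay below that of the genome, but each Wilson interval covers the genome's share. Lower shares in the window are therefore not established. The H3K27ac shares of the LCC replicates without an SO1 counterpart were of the size seen between replicates. The 29.4% of SO1 was taken against both LCC lists together, unlike the shares between replicates. Against replicate 2 alone 6 of 17 SO1 summits (35.3%) had no counterpart, beside 28.6% for replicate 1 against replicate 2. Against replicate 1 alone it was 7 of 17 (41.2%), beside 37.5% for replicate 2 against replicate 1.

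H2030 shared fewer summits with LCC. It lacked 9 of 27 LCC H3K4me3 summits (33.3%, against 37.3% over all), and 16 of its 34 (47.1%, interval 31.5 to 63.3, against 36.2%) had no LCC counterpart. H3K27ac gave 8 of 14 (57.1%, against 62.9%) and 10 of 16 (62.5%, against 67.4%) for the LCC replicates, a mean of 59.8% ± 3.79 (SD, n = 2). Of the H2030 H3K27ac summits 13 of 21 (61.9%, against 55.3%) had none in LCC.

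H3K4me1 gave 22 of 36 (61.1%, against 65%) for LCC and 27 of 40 (67.5%, against 62.4%) for H2030. These shares are near those of the genome. For H3K27ac they exceed the 28.6% and 37.5% between the LCC replicates, and the other marks have no replicate. The elements of H2030 alone numbered 10 of 35 for H3K27ac (28.6%, against 17.3% over all) and 20 of 61 for H3K4me1 (32.8%, against 19.8%), beside the 14 of 46 for H3K4me3. For H3K4me1 the interval of 22.3 to 45.3 lies above the overall share, and for H3K27ac that of 16.3 to 45.1 covers it.

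Position of an element within its own list, as the percent of summits with a lower score, was set side by side for the elements present in LCC and in the other condition. The lists differ in length, so no change of an element is read from these positions. Of 27 H3K4me3 elements, 25 stood higher in the TGF-β1 list than in the LCC list (92.6%, against 73.5% over all elements), with a median difference of 5.79 percentage points (4.45 over all). In SO1 22 of 25 stood higher (88.0%, against 67.6%), by a median of 5.57 (4.08 over all). In H2030 6 of 18 did (33.3%, against 50.6%), with a median difference of -5.19 (0.218 over all).

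Most elements of the genome thus stand higher in the first 2 lists too, and the median differences of the window were close to those. As examples, the element at 140868850 to 140868964 stood at 19.5% in LCC, 47.1% in TGF-β1-treated LCC and 42.7% in SO1, and that at 140566844 to 140566868, at 24.5%, 45.5% and 44.9%, was at 0.91% in H2030. Both were picked after their values were seen.

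For H3K27ac only elements with a summit in both LCC replicates were compared. Of 10, 6 stood higher in TGF-β1-treated LCC than in either replicate (60%, against 48.4% over all) and 5 in SO1 (50%, against 34.1%). Of 5 in H2030, 1 did (20%, against 42.2%). These counts are small.

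**Figure D4:**
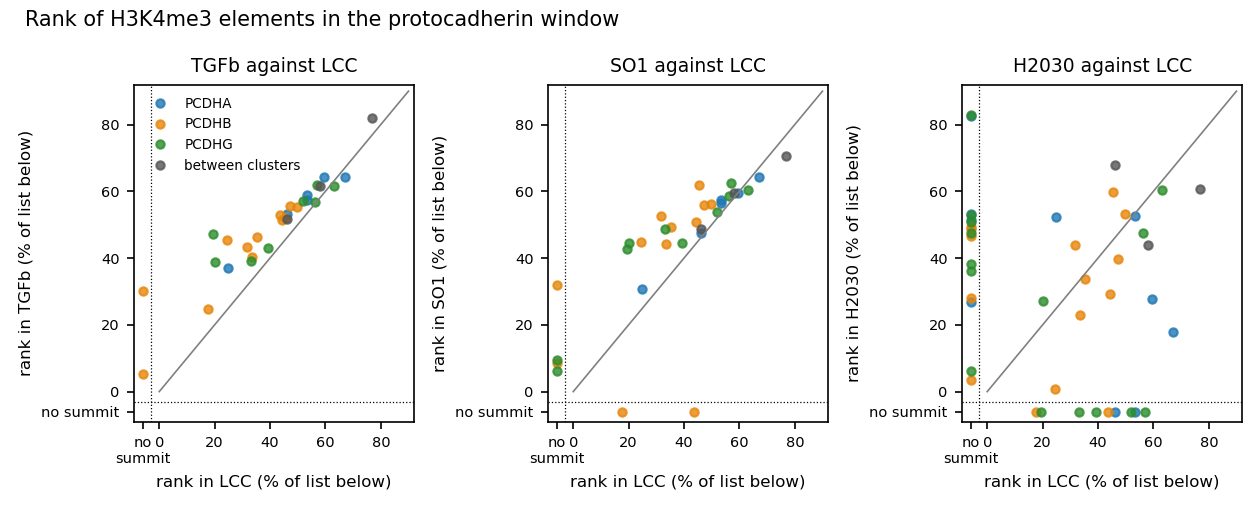
Position of each H3K4me3 element within its list (percent of the list's summits with a lower score), LCC on the x axis and the other condition on the y axis. Points are elements coloured by array, the line is equality, and points beyond the dotted lines had no summit in 1 of the 2 lists; 25 of 27 elements lie above the line for TGF-β1-treated LCC (TGFb) and 6 of 18 for H2030.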

How the data were processed

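The submitters' processing notes name hg19, Bowtie2, SAMtools and deepTools. How peaks were called is not given in the sources used here. The authors' deposited score for a summit was taken to be a −log10 p-value or a −log10 q-value, which was not settled, because its minimum over the files was 1.30107 and 0.05 corresponds to 1.30103. The files hold no counts or widths, so depth is unknown. Of the 18 samples, the 5 input libraries were not analysed here.

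Only chromosomes 1 to 22 and X entered the analysis. A counterpart lay within 500 bp, a mark at an element within 1000 bp, and elements merged summits within 1000 bp. No test was run, because all groups but LCC H3K27ac (2 replicates) had 1 library. Wilson 95% intervals cover counting error only, and neighbouring summits are not independent. The same share over all summits served as background. Elements described were the 5 with the highest H3K4me3 score per interval, those at or above the list's median in one condition with none within 10 kb in another, and the marks at these; any other is given as an example or chosen after its values were seen. The members and lists were chosen with earlier results of these data known. Promoter sequences and gene names came from RefSeq (GRCh38.p14), and no coordinates were converted. The alternatives were other distances, a minimum score of 10, lists of equal length, a window narrowed by 10 kb on each side and leaving out each LCC replicate. Scripts used Python 3.11.15, NumPy 2.4.6, SciPy 1.17.1 and matplotlib 3.10.9, and were tested on simulated data.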

Additional observations from a re-analysis of the deposited data

How the results depend on the processing

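Of 133 values recomputed under an alternative, 108 were counted as unmoved. Among them were the numbers of H3K4me3 elements, which have neither an SD nor an interval. The rest of the 108 moved by less than the replicate SD or stayed inside their Wilson interval, and 25 values did neither. A counterpart distance of 10 kb gave 14 of these. That distance spans neighbouring elements, since 25 of 45 gaps between H3K4me3 elements are shorter. Within 10 kb, the share of H3K27ac summits without a counterpart was 0% for LCC against TGF-β1-treated LCC and 9.09% in return, 6.25% for LCC against SO1 and 29.9% for LCC against H2030. For H3K4me1 it was 11.1% for LCC against TGF-β1-treated LCC and 3.45% in return, 0% for LCC against SO1 and 0% in return, and 11.1% for LCC against H2030 and 32.5% in return. For H3K4me3 it was 0% for TGF-β1-treated LCC and 0% for SO1 against LCC, and 14.8% for LCC against H2030 and 20.6% in return.

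Within 250 bp the H3K27ac share for LCC against H2030 was 66.5%, and the H3K4me1 shares were 52.8% for LCC against SO1 and 54.1% in return. Within 1000 bp the H3K27ac shares were 23.2% for LCC against SO1 and 52.7% for LCC against H2030, and the H3K4me1 share was 19.4% for LCC against SO1. With scores of at least 10, H3K27ac gave 24.1% for LCC against SO1 and 66.8% for LCC against H2030, and H3K4me3 gave 3.85% for SO1 against LCC. With lists of equal length H3K27ac gave 27.6% for LCC against SO1. Leaving out 1 LCC replicate gave 31.8% to 54.5% of TGF-β1 H3K27ac summits without an LCC counterpart, and 12.5% to 28.6% in the other direction. For SO1 summits it gave 35.3% to 41.2%, for LCC against SO1 28.6% to 31.3%, for H2030 summits 66.7% each time, and for LCC against H2030 57.1% to 62.5%. Apart from the widening or narrowing of the distance itself, the cause was not tested.

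Narrowing the window left all 18 shares within their error. The number of H3K4me3 elements was 46 with a merge distance of 500 bp, 45 with 2500 bp and 42 with scores of at least 10. H3K27ac within 500 or 2500 bp of an H3K4me3 summit, alternatives chosen after seeing the data, kept all 5 co-marking shares within their intervals. No paired analysis was possible because the replicate numbers are shared only by the LCC H3K27ac and input libraries, the inputs were not analysed here and no result comes from a test. With 1 library per condition and no read counts, an absent summit can be a peak just under the threshold, and the depth that would settle this is unknown.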

Other observations

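Some H3K4me1 sites of the window lay apart from H3K4me3. At 140375701 to 140376065, near the end of PCDHA, H3K4me1 scored 51.7 in LCC, 43.4 in TGF-β1-treated LCC and 22.7 in SO1, with no H2030 summit within the merged element. H3K27ac there scored 3.05 in LCC replicate 2 and 22.3 in TGF-β1-treated LCC, and had no summit in LCC replicate 1 or SO1. At 140352317 to 140352602 H3K4me1 scored 8.47, 21.1 and 25.8 in LCC, TGF-β1-treated LCC and SO1, and H3K27ac was present only in TGF-β1-treated LCC, with 9.76. Both sites carried H3K4me1 in all 3 H2087 conditions and H3K27ac below the middle of the list, or just above it, in those that had it.

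Just past PCDHG, at 140893668 to 140894240, H3K4me1 was highest in H2030, with 35.8, the highest H3K4me1 score of that line in the window. It was 4.30 in LCC and 18.2 in TGF-β1-treated LCC, with no SO1 summit. These sites were picked after their values were seen, each rests on 1 library per condition, and none was tested.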
